A study of Homo sapiens with 9 samples.

Results

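The 46 genes described here build and feed the DNA replication machinery or set the passage from G1 into S phase. They were chosen by name and fell into 8 roles: 11 genes of the replicative helicase, 6 of origin licensing and firing, 9 of polymerases and primase, 6 of the sliding clamp and its loader, 3 of the single-strand binding complex RPA, 3 of flap processing, ligation and uracil removal, 4 of nucleotide supply and 4 G1/S regulators. Each member matched 1 row of the 27059 genes in the deposited table, and all 46 passed the filter on low counts. RNA was sequenced from 9 libraries labelled as PC9/GR, a gefitinib-resistant lung adenocarcinoma line. There were 3 libraries with a control hairpin (shNC) and 3 with each of a pair of hairpins, sh1-HUMT and sh2-HUMT, whose labels give the lncRNA HUMT as target. All groups share the line, its resistance to gefitinib (an EGF receptor inhibitor) and growth in serum, and the labels name neither the vector nor whether a group is 1 clone.

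In G1, the origin recognition complex with CDC6 and CDT1 loads the MCM2 to MCM7 ring onto DNA. At S phase entry, cyclin E kinase and E2F factors drive transcription of replication genes, and CDC45 and GINS join the ring to form the active helicase. Primase and polymerase alpha then start each strand, the RFC complex loads the PCNA clamp for polymerases delta and epsilon, and RPA coats the exposed strand. Cultured carcinoma lines divide continuously, so transcripts of these genes are normally present in such cultures.

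In the deposited table the headers read A549, a different lung adenocarcinoma line, so the line is known from the labels only. Totals ran from 21891060 to 22159921 estimated counts per library. HUMT, a listed synonym of LINC00857, stood at 9.24 ± 0.679 CPM (counts scaled to library size by TMM, used for all levels below unless FPKM is named; SD, n = 3) in shNC and at 9.61 ± 0.465 and 8.94 ± 0.575 CPM in the libraries labelled sh1-HUMT and sh2-HUMT. Neither difference passed the test (adjusted p = 0.685 and 0.740), so every direction below is between libraries as labelled. The epithelial keratins KRT7, KRT8 and KRT18 reached 1159 to 2137 CPM, whereas the lung lineage factor NKX2-1 (at most 0.269 CPM) and the surfactant gene SFTPC (at most 0.230 CPM) were near 0. Of the leukocyte markers, CD68 and CD14 were present (11.1 to 53.2 CPM) and PTPRC was near 0 (at most 0.222 CPM). COL1A1 alone of 5 fibroblast markers exceeded 1 CPM on average in a group, and of 4 endothelial markers none did in shNC and PECAM1 alone did in the other groups. The summed markers differed between groups. The list for a lung adenocarcinoma line, which holds keratins and lung markers, summed to 5384 to 5621 CPM in shNC. In the labelled groups it summed to 4216 to 4499 and 4327 to 4369 CPM. The leukocyte sum was 61.6 to 65.7 against 48.7 to 51.6 and 52.3 to 53.1 CPM. For fibroblasts the sum was 16.5 to 21.0 against 21.8 to 23.2 and 24.8 to 26.4 CPM. For endothelium it was 1.32 to 1.70 against 1.58 to 2.63 and 2.15 to 2.58 CPM. The part of these marker sums in the results was not tested. In bulk RNA, fewer cells in S phase and less RNA per cell cannot be told apart. Whether replicates came from separate cultures is not labelled, and p-values therefore reflect a spread between libraries that may be technical.

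Members that passed the test were nearly all slightly higher in the libraries labelled with a HUMT hairpin, and most members did not pass it. Under the sh1-HUMT label, 17 of 46 members rose (37.0%, beside 15.7% of all 18540 genes tested) and 1 fell (2.17%, beside 16.3%). Under the sh2-HUMT label, 14 rose (30.4%, beside 15.9%) and 1 fell (2.17%, beside 16.5%). The 11 that rose in both (23.9%, beside 12.3%) were the helicase subunits MCM3, MCM4 and MCM7, the origin factor ORC1, POLA2 and POLE of the polymerases, the clamp PCNA and its loader subunit RFC1, RPA1, the flap nuclease FEN1 and the ligase LIG1. By non-overlap of libraries, 18 members were higher and 1 lower under the sh1-HUMT label (beside 22.0% and 22.3% of all genes), and 18 and 6 under the sh2-HUMT label (beside 23.2% and 23.4%). None fell in both by the test (beside 12.8%), although POLD2 had an unadjusted p under 0.05 in both and DESeq2 also gave 0.

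All of these changes were small. Among the 11 genes the log2 fold change ran from 0.13 for PCNA to 0.37 for ORC1, and no member reached a change of 1 on the log2 scale together with the threshold of 0.05 on the adjusted p. The median over the 46 members was 0.05 and 0.04, beside 0.00 and 0.00 over all genes tested. The members' median difference from the shNC mean was 0.03 to 0.09 (log2 CPM, 45 members with counts in every library) in the libraries labelled sh1-HUMT and 0.04 to 0.06 in those labelled sh2-HUMT, against -0.02 to 0.01 in single shNC libraries. Summed over the members, levels were 1978 to 2023 CPM in shNC, 2112 to 2177 CPM in libraries labelled sh1-HUMT and 2126 to 2141 CPM in those labelled sh2-HUMT, so all 6 libraries lay above the controls. Both comparisons use the same 3 controls, so a shift in those libraries would appear in both.

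**Figure D1:**
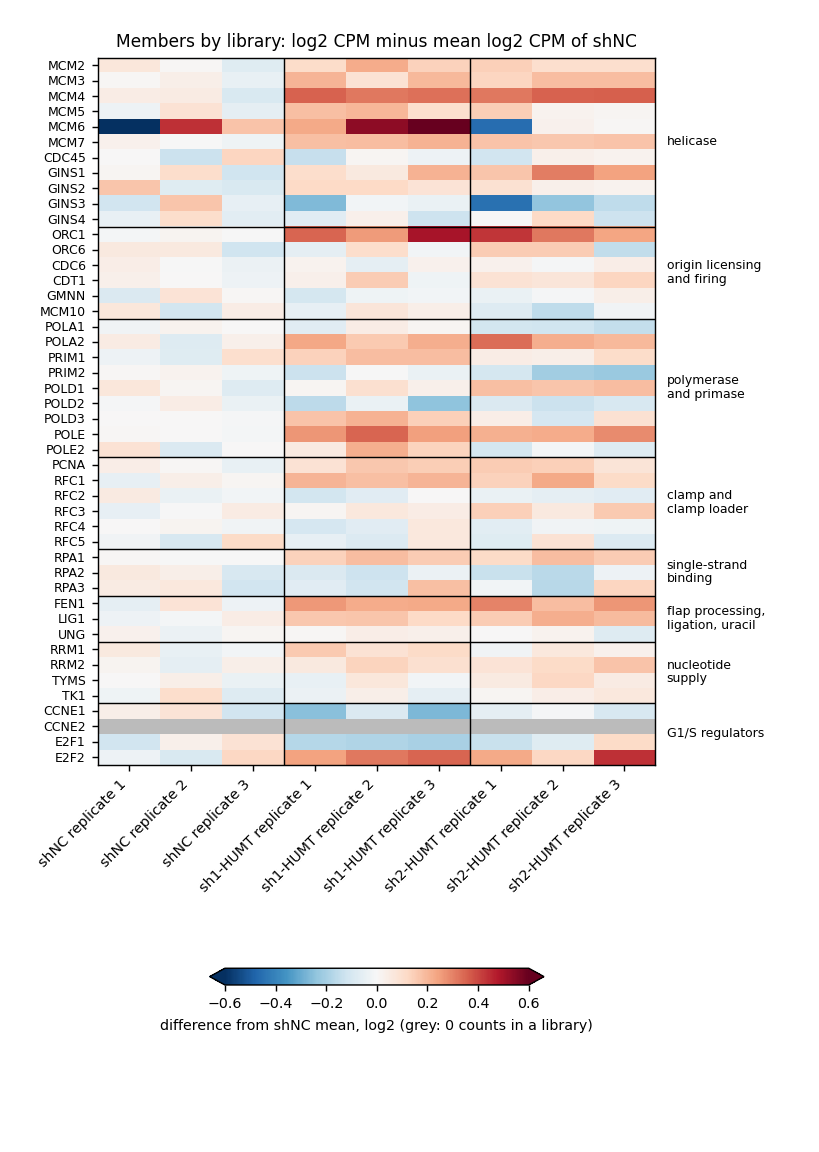
Each row is a member and each column a library; colour is log2 CPM minus the mean log2 CPM of the 3 shNC libraries, and black lines part roles and groups. Rows such as MCM4, ORC1, POLE and FEN1 are red in all 6 libraries labelled with a HUMT hairpin, MCM6 varies within every group, and CCNE2, with 0 counts in some libraries, is grey.

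E2F factors bind upstream of many replication genes, so promoter windows of the members were searched for 4 E2F-type motifs. The windows run from 250 bases before to 50 after each start in RefSeq (build GRCh38.p14, which may differ from the build behind the counts). The motifs searched were TTTCCCGC, TTTCGCGC, TTTGCCGC and TTTGGCGC on both strands; a match on the other strand reads in reverse complement, and different motifs may overlap. Of 39 members with a window, 21 held at least 1 match (53.8%), beside 1090 of the 27305 genes with a window in the RefSeq promoter set (3.99%); genes with several starts had several windows. Matches were in 6 of the 10 members with a window that rose in both comparisons (60.0%), in 4 of 9 called in 1 comparison (44.4%) and in 11 of 20 called in neither (55.0%). The shares in members that rose and in members that did not pass the test lay close together; their difference was not tested.

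Of the members that rose in both, POLE at chr12:132687293-132687592 (- strand) had the largest mean change among those with a match and PCNA at chr20:5126573-5126872 (- strand) the smallest. ORC1 at chr1:52404374-52404673 (- strand) had the largest change without a match. CDC6 at chr17:40287629-40287928 (+ strand) and E2F1 at chr20:33686336-33686635 (- strand) hold matches but were called in neither comparison; they were chosen after their values were seen. Capitals mark the 8-base matches.
POLE: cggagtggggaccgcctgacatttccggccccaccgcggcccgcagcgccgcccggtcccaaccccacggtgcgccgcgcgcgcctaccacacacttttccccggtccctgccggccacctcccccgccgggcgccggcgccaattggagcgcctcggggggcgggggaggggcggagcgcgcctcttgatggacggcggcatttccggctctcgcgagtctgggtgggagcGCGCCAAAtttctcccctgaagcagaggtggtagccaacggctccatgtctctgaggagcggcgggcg
PCNA: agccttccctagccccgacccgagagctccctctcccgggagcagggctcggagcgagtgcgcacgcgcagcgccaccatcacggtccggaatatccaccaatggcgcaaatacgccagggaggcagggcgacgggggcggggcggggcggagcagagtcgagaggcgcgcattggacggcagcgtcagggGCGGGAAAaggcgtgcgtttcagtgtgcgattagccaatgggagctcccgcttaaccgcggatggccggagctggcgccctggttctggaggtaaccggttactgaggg
ORC1: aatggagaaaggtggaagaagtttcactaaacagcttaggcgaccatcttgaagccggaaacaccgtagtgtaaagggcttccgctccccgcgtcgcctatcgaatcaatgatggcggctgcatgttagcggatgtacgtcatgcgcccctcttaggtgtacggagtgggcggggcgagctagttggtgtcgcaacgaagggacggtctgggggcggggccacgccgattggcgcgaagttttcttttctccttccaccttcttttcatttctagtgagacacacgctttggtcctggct
CDC6: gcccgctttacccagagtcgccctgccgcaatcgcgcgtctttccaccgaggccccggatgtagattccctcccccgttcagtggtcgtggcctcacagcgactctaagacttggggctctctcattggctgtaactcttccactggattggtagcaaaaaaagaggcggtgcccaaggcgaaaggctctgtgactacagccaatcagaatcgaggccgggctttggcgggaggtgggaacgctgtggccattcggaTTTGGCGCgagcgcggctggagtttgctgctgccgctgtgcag
E2F1: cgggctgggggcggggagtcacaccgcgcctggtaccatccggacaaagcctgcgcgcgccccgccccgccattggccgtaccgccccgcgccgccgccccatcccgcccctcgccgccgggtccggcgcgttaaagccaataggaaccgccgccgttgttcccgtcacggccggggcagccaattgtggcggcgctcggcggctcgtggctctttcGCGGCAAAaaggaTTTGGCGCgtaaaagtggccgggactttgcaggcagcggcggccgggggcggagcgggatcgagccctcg
The match began 18 bases before the start in POLE and 59 bases before it in PCNA, and 7 bases after it in CDC6. E2F1 had a pair of matches, 33 and 20 bases before its start. No match in ORC1 says only that these letters are not in this window.

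Of the 11 helicase genes, 5 rose in libraries labelled sh1-HUMT (45.5%, beside 15.7% of all genes) and 4 in those labelled sh2-HUMT (36.4%, beside 15.9%). None fell (beside 16.3% and 16.5%), and the median log2 change was 0.16 and 0.06. MCM4, a ring subunit, stood at 75.0, 75.2 and 68.3 CPM in shNC. Under the sh1-HUMT label it stood at 93.1, 90.5 and 91.4 CPM, and under the sh2-HUMT label at 90.5, 93.1 and 93.3 CPM. All 6 values lay above all controls. The log2 fold changes were 0.33 (SE 0.0391, adjusted p = 5.0e-05) and 0.34 (SE 0.0391, adjusted p = 3.6e-05), and between the hairpin groups 0.01. MCM7, another ring subunit, stood at 143, 140.1 and 138 CPM in shNC. It stood at 159, 159.8 and 162 CPM under the sh1-HUMT label and at 158, 157 and 158 CPM under the sh2-HUMT label. The groups were again apart, by 0.19 (adjusted p = 1.1e-04) and 0.17 (adjusted p = 3.0e-04). MCM3 rose by 0.16 and 0.17 (adjusted p = 0.0134 and 0.0119), from 44.3 to 46.7 CPM in shNC to 48.4 to 52.6 and 49.9 to 51.8 CPM. Its sh1-HUMT call disappeared on leaving out sh1-HUMT replicate 1 (log2 0.14, adjusted p = 0.0510; range over alternatives 0.00356 to 0.0510).

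The other ring subunits were less even. MCM2 and MCM5 rose in libraries labelled sh1-HUMT, each by 0.16 (adjusted p = 0.0214 and 0.0357), and were at 0.11 and 0.06 in those labelled sh2-HUMT (adjusted p = 0.0835 and 0.428). The MCM2 call disappeared on leaving out shNC replicate 3 (log2 0.13, adjusted p = 0.0768), or alternatively sh1-HUMT replicate 2 (0.12, 0.0710), and after correcting for the GC content and length of transcripts (0.11, 0.0652; range 0.0117 to 0.0849). The MCM5 call disappeared on leaving out shNC replicate 1 (0.15, adjusted p = 0.107) or 3 (0.13, 0.115), or alternatively sh1-HUMT replicate 1 (0.15, 0.0965) or 2 (0.14, 0.0955), and after that correction (0.09, 0.188; range 0.0136 to 0.188). MCM6 was unlike its partners in level and in spread. It had 96, 203 and 165 counts in shNC, 181, 223 and 240 in libraries labelled sh1-HUMT and 112, 155 and 155 in those labelled sh2-HUMT, so both overlapped shNC, and the 95% intervals against shNC were wide (-0.16 to 0.98 and -0.77 to 0.40, log2). The hairpin groups did not overlap each other, but their difference did not pass the test (-0.60, interval -1.18 to -0.03, adjusted p = 0.395).

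Of the partners that activate the ring, GINS1 rose in libraries labelled sh2-HUMT, from 13.8 to 16.1 CPM in shNC to 16.8 to 18.5 CPM (log2 0.24, adjusted p = 0.0308). It was at 0.13 in those labelled sh1-HUMT (adjusted p = 0.242), and its call disappeared on leaving out shNC replicate 1 (0.25, adjusted p = 0.0628) or 3 (0.19, 0.108), or alternatively sh2-HUMT replicate 2 (0.21, 0.0999) or 3 (0.24, 0.0714; range 0.00952 to 0.108). CDC45, GINS2, GINS3 and GINS4 did not pass the test in either comparison, with log2 values of -0.28 to 0.10. GINS3 came nearest to the threshold, at 11.2, 13.6 and 11.7 CPM in shNC and 8.88, 10.3 and 10.9 CPM in libraries labelled sh2-HUMT (adjusted p = 0.0658).

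Among the 6 factors that license and fire origins, ORC1 alone rose (16.7% in each comparison, beside 15.7% and 15.9% of all genes). ORC1, the largest subunit of the origin recognition complex, stood at 14.7, 15.0 and 14.8 CPM in shNC. Under the sh1-HUMT label it stood at 18.9, 17.7 and 20.9 CPM, and under the sh2-HUMT label at 20.0, 18.5 and 17.5 CPM. Controls were tightly grouped and every other library lay above them. The change, 0.37 (SE 0.0762, adjusted p = 0.00290) and 0.33 (SE 0.0764, adjusted p = 0.00563), was called under all 19 alternatives that gave it a value. ORC6, the helicase loaders CDC6 and CDT1, the CDT1 inhibitor GMNN (geminin) and the firing factor MCM10 were called in neither comparison. CDC6 had log2 values of 0.00 (95% interval -0.09 to 0.09) and 0.02 (-0.07 to 0.11), with 33.0 to 34.7 CPM in shNC and 32.6 to 34.7 CPM in the other 6 libraries. The other 4 ranged from -0.08 to 0.10; CDT1, at 80.7 to 84.3 CPM in shNC and 86.8 to 90.3 CPM in libraries labelled sh2-HUMT, was the closest to the threshold (adjusted p = 0.113).

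Polymerase and primase genes mostly rose where they were called, with 1 fall in each comparison, of a different gene each time. Of 9, the sh1-HUMT label had 4 that rose (44.4%, beside 15.7% of all genes) and 1 that fell (11.1%, beside 16.3%). The sh2-HUMT label had 3 that rose (33.3%, beside 15.9%) and 1 that fell (11.1%, beside 16.5%). The medians were 0.13 and 0.01. POLE, the catalytic subunit of the leading-strand polymerase epsilon, stood at 61.0, 60.8 and 60.3 CPM in shNC. It stood at 73.0, 77.4 and 72.1 CPM under the sh1-HUMT label and at 70.4, 70.9 and 73.8 CPM under the sh2-HUMT label. No library of the labelled groups came near the controls, and the change was 0.29 (adjusted p = 1.1e-04) and 0.24 (adjusted p = 4.3e-04). After the GC and length correction these values were 0.18 and 0.12 and both still passed the test (adjusted p of the second over all alternatives 1.3e-06 to 0.0530). Its partner POLE2 did not pass the test (0.13 and -0.07). POLA2, the regulatory subunit of polymerase alpha, rose from 27.0, 24.7 and 26.6 CPM to 30.6, 29.1 and 30.3 CPM and to 32.9, 30.3 and 29.8 CPM. These are changes of 0.20 and 0.25 (adjusted p = 0.0133 and 0.00366), and the first of these calls disappeared on leaving out shNC replicate 2 (0.17, adjusted p = 0.0559; range 0.00748 to 0.0559).

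The remaining polymerase calls were each made in 1 comparison. POLD1, the catalytic subunit of polymerase delta, stood at 65.2, 62.6 and 58.9 CPM in shNC and rose to 70.4, 69.8 and 70.7 CPM in libraries labelled sh2-HUMT (0.18, adjusted p = 0.00638), beside 62.7, 66.5 and 63.5 CPM in those labelled sh1-HUMT (0.05, adjusted p = 0.447). After the GC and length correction its sh2-HUMT value was 0.05 (adjusted p = 0.348; up to 0.384 over the alternatives). POLA1, the catalytic subunit of polymerase alpha, was the member that fell in libraries labelled sh2-HUMT, from 44.9, 46.2 and 45.6 CPM to 42.2, 42.0 and 41.2 CPM (-0.12, adjusted p = 0.0377). That call disappeared on leaving out any 1 of the 3 shNC libraries (adjusted p = 0.0748, 0.122 and 0.0968 without replicates 1, 2 and 3) or any 1 of the 3 sh2-HUMT libraries (0.0706, 0.0972 and 0.116; range 0.0295 to 0.122), and with DESeq2 (0.0663), while the value stayed between -0.13 and -0.10. POLD2, an accessory subunit of polymerase delta, was the member that fell in libraries labelled sh1-HUMT, from 133, 138 and 129.9 CPM to 119.9, 130.0 and 113 CPM (-0.14, adjusted p = 0.0278), with overlapping groups. Its call disappeared on leaving out shNC replicate 1 (-0.14, adjusted p = 0.0733) or 2 (-0.12, 0.115), or alternatively sh1-HUMT replicate 1 (-0.14, 0.0988) or 3 (-0.10, 0.105; range 0.00154 to 0.115). In libraries labelled sh2-HUMT it was at 126, 122 and 125 CPM, below all controls (-0.11, adjusted p = 0.0961). That value passed the test under 5 of 19 alternatives, including the GC and length correction (-0.13, adjusted p = 0.0188) and leaving out sh1-HUMT replicate 2 (-0.10, 0.0264) or 3 (-0.11, 0.0475; range 0.0184 to 0.309).

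PRIM1, the catalytic primase subunit, and POLD3, an accessory subunit of polymerase delta, rose in libraries labelled sh1-HUMT, each by 0.17 (adjusted p = 0.0183 and 0.0401). In those labelled sh2-HUMT they were at 0.06 and 0.01. PRIM1 lost its call on leaving out shNC replicate 1 (0.16, adjusted p = 0.0645) or 2 (0.14, 0.0690), or alternatively sh1-HUMT replicate 3 (0.16, 0.0542; range 2.1e-04 to 0.0690), and after the GC and length correction it was called in libraries labelled sh2-HUMT too (0.21, adjusted p = 0.00440). POLD3 kept its value within 0.16 to 0.19 but lost its call on leaving out any of the 6 libraries compared or without sh2-HUMT replicate 1 (0.17, adjusted p = 0.0524): adjusted p = 0.0796, 0.0755 and 0.0836 without shNC replicates 1, 2 and 3, and 0.0808, 0.0997 and 0.0573 without sh1-HUMT replicates 1, 2 and 3 (range 0.0236 to 0.0997). DESeq2 gave it an adjusted p of 0.0702. PRIM2, the large primase subunit, was called in neither comparison (-0.06 and -0.18).

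The clamp rose with 1 of 5 loader subunits (33.3% of the 6 genes in each comparison, beside 15.7% and 15.9% of all genes). PCNA, the ring that tethers polymerases to DNA, stood at 213, 208 and 201 CPM in shNC. Under the sh1-HUMT label it stood at 220.4, 232 and 229.6 CPM, and under the sh2-HUMT label at 230.4, 229 and 219 CPM. The lowest value of the labelled groups was just above the highest control, and the change was 0.14 (SE 0.0320, adjusted p = 0.00639) and 0.13 (SE 0.0320, adjusted p = 0.00863). RFC1, the large loader subunit, rose from 46.3, 49.2 and 48.4 CPM to 55.3, 54.3 and 55.2 CPM and to 52.8, 56.1 and 52.0 CPM. That is 0.20 (adjusted p = 0.00338) and 0.16 (adjusted p = 0.0108), with no overlap between groups. The small subunits RFC2, RFC3, RFC4 and RFC5 were called in neither comparison, with log2 values of -0.06 to 0.12. After the GC and length correction RFC3 was called in libraries labelled sh2-HUMT (0.23, adjusted p = 0.00961; range 0.00961 to 0.321).

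Of RPA and the enzymes of flap processing, ligation and uracil removal, RPA1, FEN1 and LIG1 rose in both comparisons. That was 33.3% of the RPA genes and 66.7% of the enzymes, beside 12.3% of all genes. The other 3 passed the test in neither. RPA1, the large DNA-binding subunit of RPA, stood at 106, 105 and 105 CPM in shNC. It stood at 116, 119.6 and 117 CPM under the sh1-HUMT label and at 114, 119.7 and 117 CPM under the sh2-HUMT label. All 6 values lay above the controls. The change was 0.16 (SE 0.0289, adjusted p = 0.00134) and 0.15 (SE 0.0290, adjusted p = 0.00199). RPA2 and RPA3, the smaller subunits, were called in neither comparison, at -0.08 and -0.11 and at 0.00 and -0.02. FEN1, which cuts the flaps of Okazaki fragments, rose from 21.9, 24.1 and 22.3 CPM to 27.2, 26.5 and 26.6 CPM and to 28.0, 25.9 and 27.3 CPM. No library overlapped the controls, and the change was 0.23 (adjusted p = 0.00562) and 0.25 (adjusted p = 0.00349). LIG1, which seals the nicks, rose by 0.15 and 0.19 (adjusted p = 0.00786 and 0.00178), from 58.2 to 61.3 CPM in shNC to 64.6 to 66.7 and 66.0 to 69.2 CPM. After the GC and length correction its sh1-HUMT value was 0.09 (adjusted p = 0.0880; range 0.00393 to 0.103) and its sh2-HUMT value 0.11, which still passed the test (range 2.1e-04 to 0.0611). UNG, which removes uracil from DNA, was called in neither comparison (0.03 and -0.02; 95% intervals -0.07 to 0.12 and -0.11 to 0.07).

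In nucleotide supply, a different subunit of ribonucleotide reductase passed the test in each comparison. Each time 1 of 4 genes rose, beside 15.7% and 15.9% of all genes, and none fell (beside 16.3% and 16.5%). With only 4 genes, these counts show no excess. RRM1, the large subunit of ribonucleotide reductase, stood at 84.2, 78.6 and 80.1 CPM in shNC and rose to 90.1, 86.0 and 87.5 CPM in libraries labelled sh1-HUMT (0.12, adjusted p = 0.0295), beside 79.7, 84.5 and 82.5 CPM in those labelled sh2-HUMT (0.02, adjusted p = 0.699). RRM2, the small subunit, stood at 70.1, 66.7 and 71.0 CPM in shNC and rose to 73.2, 74.9 and 78.0 CPM in libraries labelled sh2-HUMT (0.12, adjusted p = 0.0310), beside 72.2, 76.0 and 74.1 CPM in those labelled sh1-HUMT (0.10, adjusted p = 0.0783). Each call was near the threshold and was lost on leaving out any of several libraries. With upper-quartile scaling RRM2 also passed the test in libraries labelled sh1-HUMT (0.12, adjusted p = 0.0389). The RRM1 call disappeared on leaving out shNC replicate 2 (0.10, adjusted p = 0.0805) or 3 (0.11, 0.0693), or alternatively sh1-HUMT replicate 1 (0.10, 0.0959) or 3 (0.12, 0.0600; range 0.00729 to 0.0959), and the RRM2 call without shNC replicate 2 (0.10, 0.0866), or alternatively sh2-HUMT replicate 2 (0.13, 0.0532) or 3 (0.10, 0.128; range 0.0150 to 0.128). The thymidylate synthase TYMS (0.00 and 0.08) and the thymidine kinase TK1 (-0.02 and 0.03) did not pass the test, but after the GC and length correction TYMS was called in libraries labelled sh2-HUMT (0.14, adjusted p = 0.0157; range 0.00984 to 0.406).

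Of 4 G1/S regulators, E2F2 alone passed the test, and in 1 comparison. Under the sh1-HUMT label 1 of 4 rose, beside 15.7% of all genes. Under the sh2-HUMT label 0 of 4 rose, beside 15.9%. None fell (beside 16.3% and 16.5%). With only 4 genes, these counts show no excess. E2F2, an activating E2F factor, stood at 9.59, 9.20 and 10.7 CPM in shNC. Under the sh1-HUMT label it stood at 11.6, 12.2 and 12.5 CPM, and under the sh2-HUMT label at 11.5, 10.7 and 13.3 CPM. It rose in the first of these (0.29, adjusted p = 0.0341) and just missed the threshold in the other (0.27, adjusted p = 0.0523). The sh1-HUMT call disappeared on leaving out shNC replicate 1 (0.28, adjusted p = 0.0934) or 2 (0.25, 0.109), without sh1-HUMT replicate 1 (0.33, 0.0518), 2 (0.29, 0.0710) or 3 (0.27, 0.0966), and after the GC and length correction (0.21, 0.121; range 0.0211 to 0.121). The sh2-HUMT value passed the test on leaving out shNC replicate 3 (0.34, adjusted p = 0.0359), or alternatively sh2-HUMT replicate 2 (0.34, 0.0280; range 0.0280 to 0.255). E2F1, another activating E2F factor, was at 20.9, 23.1 and 24.0 CPM in shNC, 20.1, 20.0 and 19.8 CPM in libraries labelled sh1-HUMT and 20.6, 21.5 and 24.5 CPM in those labelled sh2-HUMT (-0.18 and -0.03, adjusted p = 0.0799 and 0.810); without shNC replicate 1 the sh1-HUMT value was -0.23 (adjusted p = 0.0417). CCNE1, cyclin E1, was at 18.5, 19.1 and 16.7 CPM, at 15.2, 17.0 and 15.0 CPM and at 17.4, 18.0 and 16.9 CPM (-0.20 and -0.06, adjusted p = 0.0554 and 0.610). It was called in libraries labelled sh1-HUMT without shNC replicate 3 (-0.26, adjusted p = 0.0328) or without sh1-HUMT replicate 2 (-0.26, 0.0222; range 0.0222 to 0.188). CCNE2, cyclin E2, had 5, 13 and 23 counts in shNC, 0, 27 and 0 in libraries labelled sh1-HUMT and 24, 13 and 0 in those labelled sh2-HUMT, too few and too scattered to compare.

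**Figure D2:**
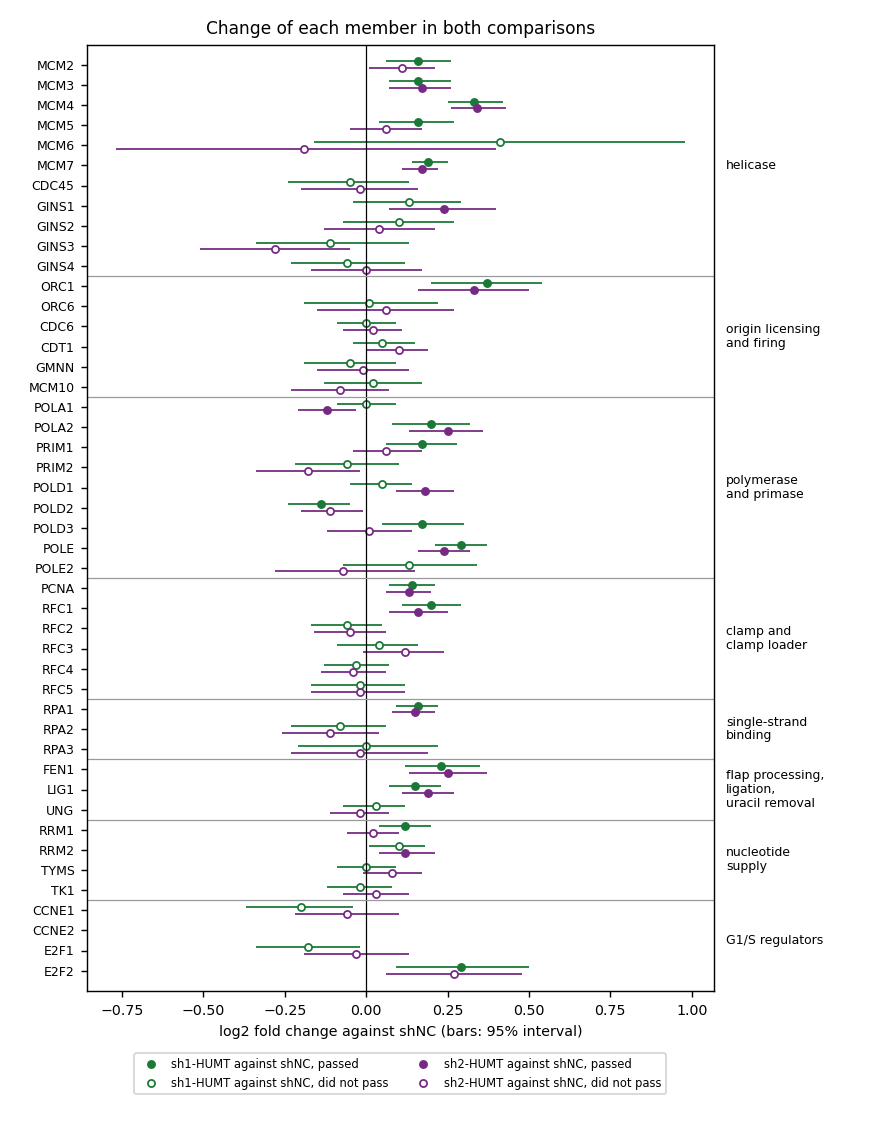
Points are log2 fold changes against shNC from edgeR and bars their 95% intervals, in green for libraries labelled sh1-HUMT and purple for sh2-HUMT (n = 3 each); filled points passed an adjusted p of 0.05. Filled points lie right of 0 except POLA1 and POLD2; CCNE2 is not drawn because it had 0 counts in some libraries.

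The test between the hairpin groups called no member. Of 46 members 0 were called in sh2-HUMT against sh1-HUMT (beside 0.108% higher and 0.178% lower over all genes), the smallest adjusted p was 0.238, and DESeq2 also called 0. The share of all genes at an unadjusted p under 0.05 was not counted, so no excess of members can be read there. At that threshold there were 6: MCM6, POLA1, PRIM1, POLD1, POLD3 and RRM1. Their differences between the hairpin groups were -0.60, -0.12, -0.11, 0.13, -0.16 and -0.10 (log2), each with an adjusted p of at least 0.238. The 11 members called in 1 comparison with shNC only are therefore not shown to differ between hairpins. Their 95% intervals, not adjusted for many tests, reach furthest for POLD3 (-0.29) and GINS1 (0.28). Those of POLD3 (-0.29 to -0.04), POLD1 (0.04 to 0.22), POLA1 (-0.21 to -0.03) and RRM1 (-0.18 to -0.01) leave out 0, and that of PRIM1 ends at 0.00.

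Levels can be set against each other only per transcript length, for which the authors' FPKM was used. In shNC the members had a median of 11.4 FPKM, 22 of 46 were under 10 FPKM, and 7 were at 30 FPKM or more. PCNA led at 155 ± 4.64 FPKM (SD, n = 3), ahead of POLD2 at 79.3 ± 3.21, MCM7 at 54.0 ± 1.14 and TK1 at 48.5 ± 4.26 FPKM. Next came TYMS (35.8 ± 1.18), RPA1 (35.3 ± 0.388) and RRM1 (32.6 ± 1.76 FPKM), of which TYMS and RPA1 did not differ beyond their spread. At the other end were E2F2 (2.18 ± 0.146), MCM6 (1.86 ± 0.683) and CCNE2 (0.0833 ± 0.0551 FPKM), where E2F2 and MCM6 did not differ beyond their spread.

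Subunits of a complex differed widely in some cases. Within the ring of MCM2 to MCM7, which binds DNA with 1 copy of each subunit per ring, MCM7 had 29.0 times the level of MCM6 in shNC, 24.7 times in libraries labelled sh1-HUMT and 37.5 times in those labelled sh2-HUMT. The other ring subunits MCM2 (13.2 ± 0.605), MCM3 (14.0 ± 0.429), MCM5 (17.4 ± 0.930) and MCM4 (21.3 ± 1.07 FPKM) lay between. In polymerase delta POLD2 was 13.2 times as high as POLD3 in shNC. In shNC, levels were closer within GINS (2.59 times from GINS1 to GINS2), the clamp loader (2.01 times from RFC3 to RFC5) and ribonucleotide reductase (1.78 times from RRM2 to RRM1). FPKM rests on the transcript lengths estimated by the authors, and reads shared with other loci can be split between them. Of 10471 genes with over 200 counts in every library, 64.7% had an implied length that differed by under 10% between libraries. POLE2 went from 3.84 FPKM in shNC to 6.07 FPKM under the sh1-HUMT label, but only from 6.57 to 7.21 CPM.

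**Figure D3:**
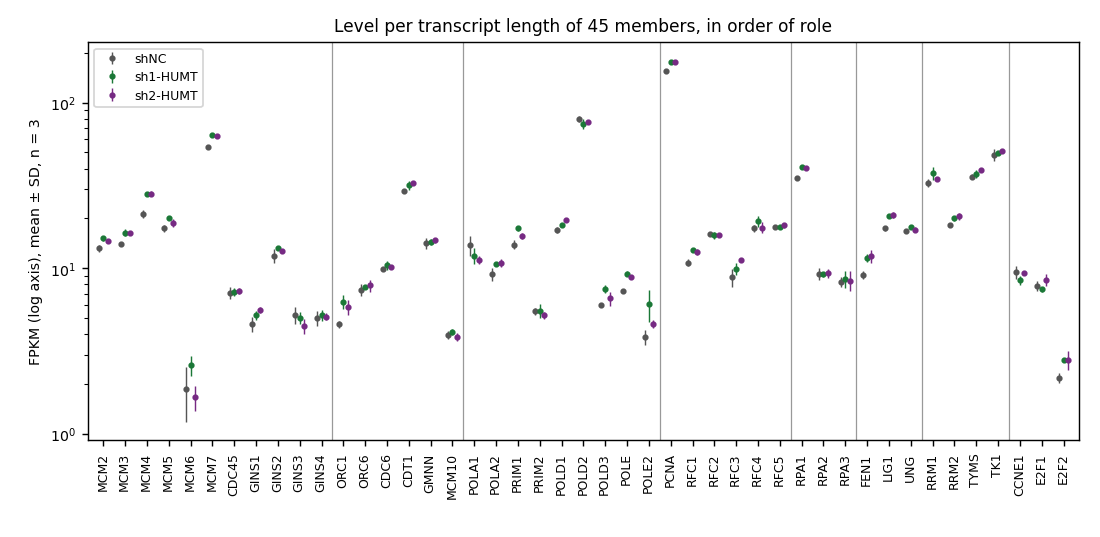
Points are mean FPKM per group (log axis) and bars the SD over 3 libraries, for the members in order of role with CCNE2 left out; vertical lines part the roles. PCNA is highest at 155 FPKM in shNC and MCM6 lowest at 1.86 FPKM, below all other ring subunits in all 3 groups.

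Within groups the members were reproducible. The median coefficient of variation of CPM was 4.94% in shNC, 3.80% in libraries labelled sh1-HUMT and 3.32% in those labelled sh2-HUMT. Outside CCNE2 and MCM6 the highest value was 11.3%, for E2F2 in libraries labelled sh2-HUMT. Across the 46 members, which are not independent replicates, Spearman's rho between log2 fold change and transcript length was 0.44 and 0.30, and between log2 fold change and GC content 0.08 and 0.36, beside 0.20 and 0.14 and 0.04 and 0.15 over 15899 genes. All points share the same libraries. With the correction for both properties, 13 members rose in libraries labelled sh1-HUMT and 16 in those labelled sh2-HUMT, 11 in both, and POLD2 fell in both. In that fit the median log2 change was 0.09 and 0.06 over members, beside 0.00 and -0.01 over all genes tested. The shares of all genes called in it are not given here, so these counts alone show no excess.

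Related genes moved as follows, from lists that hold no member. Of 49 other replication and fork genes, 12 rose and 7 fell under the sh1-HUMT label (24.5% and 14.3%, beside 15.7% and 16.3% of all genes), against 12 up and 8 down under the sh2-HUMT label (24.5% and 16.3%, beside 15.9% and 16.5%), with medians of 0.03 and -0.03 beside 0.00 and 0.00 over all genes. TICRR, which helps CDC45 load at origins, rose from 27.0 to 37.2 and 37.4 CPM in group means (0.46 and 0.47), the topoisomerase TOP2A rose by 0.25 and 0.18, the fork protection factor TIMELESS by 0.27 and 0.22, and RRM2B, a p53-induced reductase subunit, by 0.31 and 0.23. TOP1, the other main nuclear topoisomerase, fell by 0.25 and 0.34, and POLE3, a small subunit of polymerase epsilon, fell by 0.21 and 0.19.

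Of 31 other genes that control G1 and S entry, 7 rose and 5 fell under the sh1-HUMT label (22.6% and 16.1%, beside 15.7% and 16.3% of all genes), against 7 up and 7 down under the sh2-HUMT label (22.6% each, beside 15.9% and 16.5%), with medians of 0.01 and 0.05. MYC, a transcription factor that promotes G1/S passage, fell from 192 ± 0.851 CPM to 125 ± 3.84 and 125 ± 2.46 CPM (-0.62 and -0.62, adjusted p = 1.7e-08 and 1.5e-08). CCND1, cyclin D1, fell by 0.13 and 0.23, whereas cyclin D3 CCND3 (0.34 and 0.46), the pocket protein RBL2 (0.37 and 0.33), the cyclin-dependent kinase inhibitor CDKN1B (0.26 and 0.27) and the E2F partner TFDP2 (0.26 and 0.20) rose. CDKN1A, the p53-induced inhibitor p21, fell in libraries labelled sh2-HUMT (-0.12, adjusted p = 0.0147) and stood at -0.03 in the others (adjusted p = 0.540). CDK2 (-0.01 and 0.09) and RB1 (0.06 and -0.10) did not pass the test.

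Of 40 genes of mitosis and G2/M, 22 rose and 3 fell under the sh1-HUMT label (55.0% and 7.50%, beside 15.7% and 16.3% of all genes). Under the sh2-HUMT label 19 rose and 3 fell (47.5% and 7.50%, beside 15.9% and 16.5%). The medians were 0.11 and 0.12, and the lowest log2 values in the list -0.47 and -0.30. The same 3 genes fell in both comparisons. These counts were not tested against those of the replication genes. MKI67, the proliferation marker Ki-67, rose from 262 ± 13.2 to 353 ± 12.7 and 344 ± 1.39 CPM. INCENP, of the chromosomal passenger complex (0.52 and 0.51), the checkpoint kinase BUB1 (0.39 and 0.36), the separase ESPL1 (0.44 and 0.47), the cytokinesis factor ECT2 (0.39 and 0.33) and the spindle protein NUSAP1 (0.27 and 0.29) also rose.

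**Figure D4:**
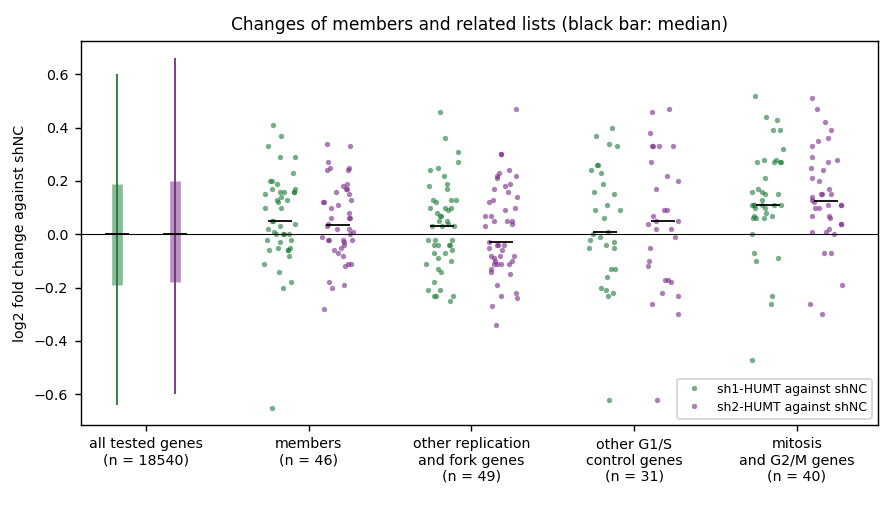
Each point is a gene's log2 fold change against shNC, in green for libraries labelled sh1-HUMT and purple for sh2-HUMT, and black bars are medians; for all tested genes the thick bar spans the 25th to 75th and the thin line the 5th to 95th percentile. Member medians are 0.05 and 0.04, mitosis medians 0.11 and 0.12, and the low point among other G1/S control genes at -0.62 is MYC; the lowest member point is CCNE2, which had few counts.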

How the data were processed

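The authors deposited 1 table with estimated counts and FPKM per gene and library. The submitters' processing notes list RSEM 1.2.12, DESeq2 1.4.5, HISAT2 2.0.4 and Bowtie2 2.2.5 and give them no role; the build and strand use in counting are not given in the sources used here. FPKM as the unit of the authors' second set of columns was inferred from the values. Columns were matched to the labels by hairpin arm and replicate number, although their headers name A549 and Si rather than PC9/GR and sh; 6 group averages were not used. The series' design text describes another study.

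Estimated counts, as deposited, were rounded, scaled by TMM and filtered with filterByExpr, and all 9 libraries entered 1 fit of the quasi-likelihood test in edgeR 4.0.16 under R 4.3.3, which gave every adjusted p unless another tool is named. P-values were adjusted by Benjamini-Hochberg over 18540 genes, with a threshold of 0.05. The method was run on simulated data with an equal spread for all genes and far fewer changed genes than here. That run does not measure its accuracy for the small changes above. DESeq2 1.42.0, other scalings and filters, a replicate block, a GC and length offset (GENCODE transcripts matched 15899 of the genes) and leaving out each library were alternatives. FPKM was used only for levels between genes. The members and lists were chosen with earlier results of these data known. Genes named from the related lists were ranked by the larger of both adjusted p-values, 6 a list, plus CDK2, RB1 and CDKN1A. Counts may be shared between overlapping or near-identical genes. A marker in the summed lists is not reported here by name.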

Additional observations from a re-analysis of the deposited data

How the results depend on the processing

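No direction of a called value reversed under any alternative. Of the 18 members called in libraries labelled sh1-HUMT, 8 held under every alternative other than a fold minimum; of the 15 called in libraries labelled sh2-HUMT, 9 did. Requiring a log2 change of at least 1 left 0 members higher or lower in either comparison and 0 higher in both. The single lower call in libraries labelled sh1-HUMT became 0 with upper-quartile scaling or with only the 2 groups compared, and 2 with a replicate block. The one in libraries labelled sh2-HUMT became 0 with upper-quartile scaling, DESeq2 or no filter, and 2 with only the 2 groups compared, a replicate block or the GC and length offset; 1 member was lower in both with that offset, also with the replicate block. Leaving out 1 library gave 12 to 17 and 12 to 15 members higher, 10 to 12 higher in both, 0 to 2 lower in each comparison and 0 to 1 lower in both. Member counts under the alternatives are not set beside shares of all genes, so they show only how calls moved. Over all genes, sh2-HUMT against sh1-HUMT gave 20 higher and 33 lower, DESeq2 172 and 194, and leaving out 1 library 1 to 89 and 0 to 66, the most without sh1-HUMT replicate 2; higher genes numbered 11 with only the 2 groups compared, 7 with the block, 8 with the offset and 4 with both.

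The labels do not say that the replicate numbers pair the libraries. Correlations of same-numbered libraries ran from -0.03 to 0.10 and those of differently numbered ones from -0.12 to 0.09. Of 9 libraries, 4 correlated best with their own number. Such weak correlations do not settle whether the numbers pair the libraries. With the replicate block 17 members were higher and 2 lower in libraries labelled sh1-HUMT, 15 and 2 in those labelled sh2-HUMT, and 12 were higher in both. In that fit the median log2 change was 0.05 and 0.04 over members, beside 0.00 and 0.00 over all genes tested. The block added calls of MCM6 (0.45, adjusted p = 0.0264) and CCNE1 (-0.20, 0.0365) in libraries labelled sh1-HUMT and of GINS3 (-0.28, 0.0288) and E2F2 (0.26, 0.0349) in those labelled sh2-HUMT, and ended that of POLD3 (0.17, 0.0620). With the offset and the block together, but not with either alone, POLE (0.12, 0.0530), LIG1 (0.11, 0.0611) and POLA1 (-0.12, 0.0580) lost their sh2-HUMT calls and MCM6 was at 0.46 (0.0220). The cause of these shifts was not tested. CCNE2 had at most 27 counts in a library, and the cause of its scatter was not tested.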
